A study of Homo sapiens with 8 samples.

Results

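Ribosome biogenesis factors are the proteins that make ribosomes without being part of the finished particle. The 35 genes described here code for such factors and were taken by symbol from the count tables, which list 23193 genes. All 35 had a row. Of these, 34 passed the filter on low counts in the gene body and 33 passed it at the transcription start site (TSS). Transcription was measured by PRO-seq, which sequences the RNA that engaged polymerases extend in isolated nuclei, in HCT116, a human colorectal carcinoma cell line. The 4 groups were WT and HIF1A-/- cells, each kept in normoxia or exposed to hypoxia of 1% O2 for 90 min, with 2 libraries per group and DMSO vehicle in all 8 libraries. In the HIF1A-/- line HIF1A had been disrupted within the gene by homologous recombination, and whether the line is a single clone is not given in the sources used here. The study describes its replicates as independent biological duplicates.

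Ribosomal RNA is transcribed by RNA polymerase I in the nucleolus, and small nucleolar ribonucleoproteins (snoRNPs) guide its modification and cleavage. The precursor is then folded and trimmed, with ribosomal proteins, into a small and a large subunit. The genes of these factors are transcribed by RNA polymerase II, are widely used as markers of growth, and are textbook targets of MYC. HIF1A is the oxygen-sensitive subunit of the transcription factor that induces many genes in hypoxia. By role, the set held 2 RNA polymerase I subunits, 6 abundant nucleolar proteins, 5 snoRNP proteins, 10 factors of small subunit assembly and 12 of large subunit assembly.

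The libraries held between 18125234 and 23622392 gene body reads and between 2783581 and 5966348 TSS reads. Of the reads counted in both regions together, 11.2% and 12.9% lay in TSS regions in replicate 1 of HIF1A-/- normoxia and of HIF1A-/- hypoxia, against 16.9% to 20.2% in the other 6 libraries. Of the epithelial markers, EPCAM, KRT8, KRT18, KRT19, CDH1 and CDX2 lay at a gene body level of 13.1 CPM (counts scaled to library size) or above in every library, whereas CDX1 and VIL1 stayed under 1 CPM and LGALS4 reached 1.58 CPM. Of 10 markers of other cell types, COL1A1, VWF and ACTA2 were well above 1 CPM, at up to 50.3 CPM for COL1A1, while the leukocyte markers PTPRC and CD3E stayed under 0.5 CPM, and the summed level of these 10 ran from 38.4 to 99.5 CPM. HIF1A itself gave 138 and 150 CPM in the gene body in WT normoxia and 165 and 137 CPM in HIF1A-/- normoxia. Since only part of the gene was disrupted, reads over its whole body do not check the genotype label.

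Some rows did not measure what their name says. PPAN, a factor for the large subunit precursor, had 0 reads in every library and both regions. The read-through gene PPAN-P2RY11, whose counted body starts at the same base, held 260 to 554 gene body reads. The BOP1 row did not overlap the annotated BOP1 gene on GRCh37. It lay on a second copy, annotated as KM-PA-2, that aligned to the annotated gene over 99.6% of its length at an identity of 99.6%, and it held 19 to 88 gene body reads and at most 1 TSS read. BOP1 values are therefore uncertain. The TSS region counted for PES1 held 1 to 12 reads although its body held 1461 to 2539. Inside that body, 7 annotated PES1 transcripts start between bases 30984010 and 30987897 of chromosome 22 (GRCh37). The TSS and pausing values of PES1 are therefore not those of its main start. Reads near those starts fell in its counted body, so its gene body values are uncertain as well. The TSS region counted for TSR1 held 195 to 367 reads, but no annotated TSR1 transcript starts in it. The TSS and pausing values of TSR1 are therefore uncertain. RRS1, with a body of 706 bp, rested on 80 to 260 body reads. Of the 35 genes, 8 hold annotated snoRNA genes inside the counted body, and reads from such intronic RNAs cannot be told apart from reads of the host.

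Transcription of these genes was high. In RPKM, a level scaled for body length and library size and here averaged over 8 libraries, the median of the 34 genes was 4.65, against 1.31 over all 16686 genes tested. NOP56, a core protein of box C/D snoRNPs (counted body chr20:2634178-2639039 on GRCh37, plus strand), stood highest at 52.6 RPKM. NCL, the nucleolar protein nucleolin, followed at 24.9 RPKM, and NPM1, nucleophosmin, at 15.7 RPKM. GNL3, or nucleostemin, a GTP-binding protein of large subunit assembly, was at 14.7 RPKM. Its order against NPM1 was not settled, since in WT normoxia GNL3 had 14.4 and 18.9 RPKM and NPM1 17.95 and 15.7 RPKM. The leading genes of the other roles were TSR1 of small subunit assembly at 9.29 RPKM and POLR1B, a catalytic subunit of RNA polymerase I, at 3.39 RPKM. At the low end stood DDX10, an RNA helicase gene whose counted body of 274906 bp (chr11:108536752-108811657, GRCh37, plus strand) was the longest of the set, at 1.12 RPKM, and the BOP1 row at 0.176 RPKM. NOP56, NCL, GNL3 and TSR1 were among the genes with snoRNAs in the counted body.

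**Figure D1:**
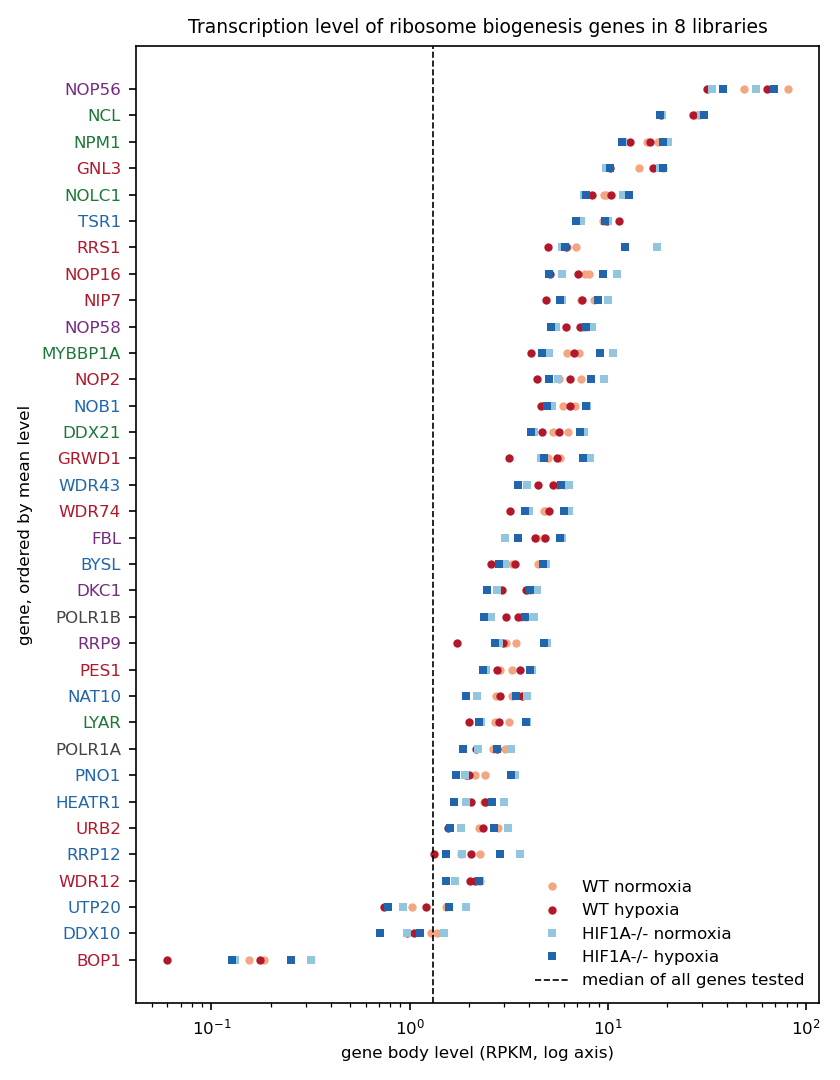
Gene body level of the 34 genes tested, in RPKM on a log axis, with 1 point per library coloured by group and genes ordered by their mean. NOP56 lies at the top at a mean of 52.6 RPKM, the BOP1 row at the bottom at 0.176 RPKM, and the dashed line marks the median of all genes tested, 1.31 RPKM.

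Promoters were read from RefSeq (GRCh38.p14), which covers 250 bases before and 50 from each annotated start. Windows were found for 29 of the 35 genes, 36 in all, and those of BOP1, NOLC1, NOP58, RRP12, RRS1 and URB2 were not used here. The E-box CACGTG, the palindrome bound by MYC and by other factors of its class, was present in 13 of the 29 genes (44.8%). It was present in 7.26% of all 35116 windows of the table, and in 11.9% of the 11997 genes tested in the body that have a window. In 8 of the 13 genes it lay downstream of the start. The core of the hypoxia response element, ACGTG on either strand, was in 58.6% of the 29 genes and 30.8% of the tested genes, a motif that every E-box contains. The other form of that core, GCGTG on either strand, was in 72.4% and 55.3%. A match is a description of letters and shows no binding. The 13 E-boxes are shown so that their surroundings can be compared, each in capitals with up to 20 bases on either side, 5′ to 3′ on the strand of the gene.
BYSL (chr6:41921507-41921548, plus strand): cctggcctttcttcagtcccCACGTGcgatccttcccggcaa
DDX21 (chr10:68956596-68956641, plus strand): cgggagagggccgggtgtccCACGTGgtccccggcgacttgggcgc
FBL (chr19:39846348-39846393, minus strand): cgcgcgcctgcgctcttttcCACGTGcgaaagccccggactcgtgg
GNL3 (chr3:52686018-52686063, plus strand): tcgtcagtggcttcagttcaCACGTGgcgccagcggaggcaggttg
LYAR (chr4:4290060-4290105, minus strand): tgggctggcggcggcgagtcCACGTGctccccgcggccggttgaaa
MYBBP1A (chr17:4555335-4555377, minus strand): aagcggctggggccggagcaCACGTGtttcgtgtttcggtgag
NAT10 (chr11:34105594-34105639, plus strand): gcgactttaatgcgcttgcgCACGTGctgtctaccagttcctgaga
NOP2 (chr12:6568242-6568276, minus strand): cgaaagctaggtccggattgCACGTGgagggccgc
PES1 (chr22:30591872-30591917, minus strand): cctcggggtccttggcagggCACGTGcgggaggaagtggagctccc
PNO1 (chr2:68157877-68157922, plus strand): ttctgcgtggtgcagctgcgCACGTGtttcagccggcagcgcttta
RRP9 (chr3:51941884-51941929, minus strand): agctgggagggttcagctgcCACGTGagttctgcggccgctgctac
UTP20 (chr12:101280075-101280120, plus strand): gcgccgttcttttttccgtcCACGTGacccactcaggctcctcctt
WDR43 (chr2:28894650-28894695, plus strand): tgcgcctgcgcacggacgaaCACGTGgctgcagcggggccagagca

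The whole window of RRP9, whose protein binds the snoRNA at the heart of the small subunit processome, is shown as the example with the E-box closest to the start among the 5 upstream ones. Its first base is 5 bases before the start, and it is again in capitals.
RRP9 (chr3:51941855-51942154, minus strand): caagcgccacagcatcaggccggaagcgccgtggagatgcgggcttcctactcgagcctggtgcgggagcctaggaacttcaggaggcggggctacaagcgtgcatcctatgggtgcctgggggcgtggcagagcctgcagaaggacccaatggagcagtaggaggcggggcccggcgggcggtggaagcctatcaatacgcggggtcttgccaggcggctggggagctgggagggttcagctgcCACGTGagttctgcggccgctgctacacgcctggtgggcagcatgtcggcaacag

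In the HIF1A-/- cells the set differed more between the 2 libraries of a group than between oxygen levels. In HIF1A-/- normoxia all 34 genes had a higher gene body level in replicate 1 than in replicate 2, where 49.8% of all genes tested did. So did 34 of 34 in the HIF1A-/- hypoxia group (49.3% of all genes) and 34 of 34 in the WT hypoxia group (50.5%). In WT normoxia it held for 28 of 34 (47.3%). All 34 lay higher in replicate 1 in both HIF1A-/- groups, as did 42.2% of all genes. The median ratio of replicate 1 to replicate 2 was 1.12 for WT normoxia and 1.31 for WT hypoxia. For the HIF1A-/- groups it was 1.70 (normoxia) and 1.66 (hypoxia). These are descriptions of pairs of libraries, with no test, and replicate numbers have no order.

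The summed gene body level of the 34 genes shows the same. It was 4083 and 4003 CPM in replicates 1 and 2 of WT normoxia, and 3924 and 2976 CPM in WT hypoxia. The HIF1A-/- sums were 4805 and 2900 CPM in normoxia and 4452 and 2681 CPM in hypoxia. Within each genotype the hypoxia library was below the normoxia library of the same number, and the gap between numbers exceeded the gap between oxygen levels in HIF1A-/- cells. The sum was highest in the 2 libraries with the lowest share of reads in TSS regions, 11.2% and 12.9%. That share was close in both replicates of the WT groups, for example 17.6% and 17.4% in normoxia, where the sums were also close. In WT hypoxia the shares were close too, but the sums were not, at 3924 and 2976 CPM in replicates 1 and 2. The part of this share in the replicate difference was not tested.

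**Figure D2:**
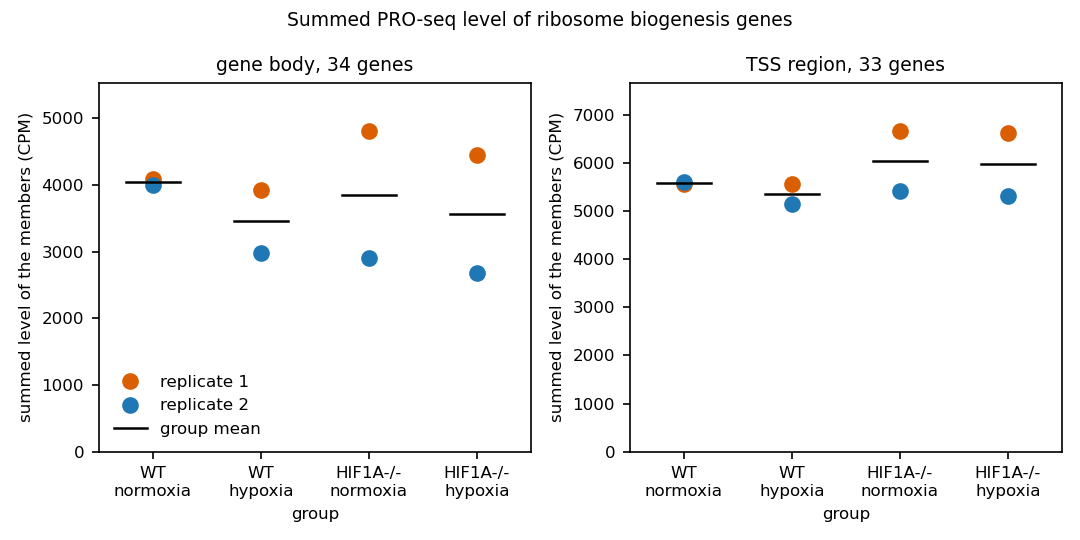
Summed level of the members in CPM for each library, by group, in the gene body (left, 34 genes) and at the TSS (right, 33 genes), with replicates in different colours and the group mean as a line. In the gene body the HIF1A-/- libraries numbered 1 lie at 4805 and 4452 CPM and those numbered 2 at 2900 and 2681 CPM.

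The replicate difference ran through every role. In HIF1A-/- normoxia the median difference, in log2 CPM, was 0.64 for the RNA polymerase I genes, 0.75 for the abundant nucleolar proteins, 0.73 for the snoRNP proteins, 0.70 for small subunit assembly and 0.79 for large subunit assembly. It was not restricted to these 34 genes. Other genes of the pathway, from lists written by role, had medians of 0.49 to 0.60 in the same group, and cytosolic and mitochondrial ribosomal protein genes had 0.55 and 0.47, while the median of all genes was 0.00. The departures from it were in WT normoxia, where 6 genes were lower in replicate 1. NOP56 was the widest of them, at 236 CPM in replicate 1 and 396 CPM in replicate 2. The 7 tested snoRNA host genes had a median difference of -0.08 in that group, against 0.21 for the other 27.

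**Figure D3:**
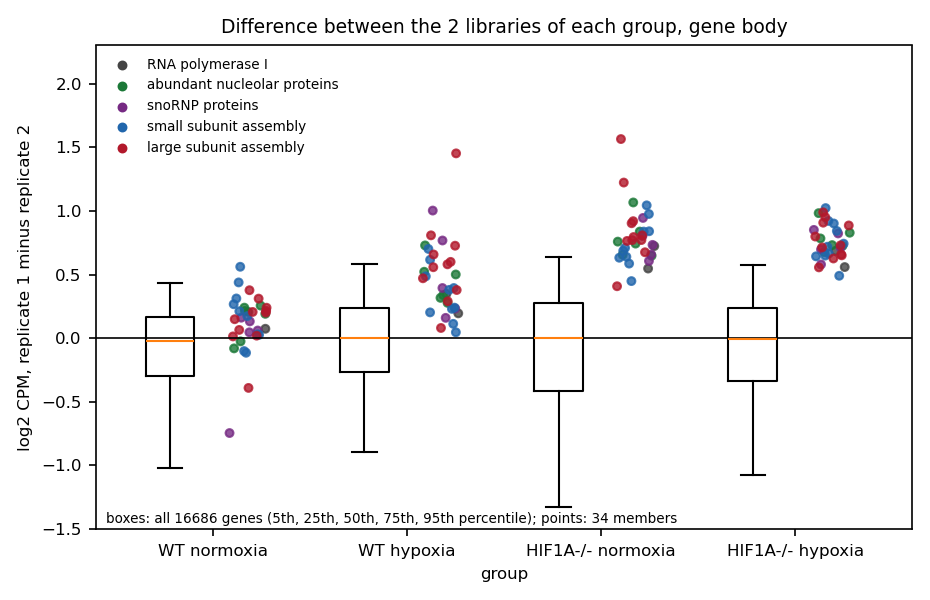
Replicate 1 minus replicate 2 in log2 CPM of the gene body, by group, with the 34 genes as points coloured by role and the percentiles of all 16686 genes tested as boxes. In WT hypoxia and both HIF1A-/- groups all 34 points lie above 0, with medians of 0.39, 0.76 and 0.73, and in WT normoxia NOP56 lies lowest at -0.75.

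At the TSS the difference between replicates was smaller. Replicate 1 was higher for 25 of 33 genes in WT normoxia (48.0% of all genes), 25 of 33 in WT hypoxia (48.8%), 29 of 33 in HIF1A-/- normoxia (48.4%) and 31 of 33 in HIF1A-/- hypoxia (49.2%). The summed TSS level was 6658 and 5423 CPM in HIF1A-/- normoxia, a ratio of 1.23, whereas the gene body sums of that group had a ratio of 1.66.

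Most genes of the set had lower values in hypoxia, but none passed the test. In WT cells 30 of 34 genes had a lower fitted gene body level after 90 min, and the median log2 fold change was -0.25, against -0.02 over all genes tested. In HIF1A-/- cells 29 of 34 were lower, with a median of -0.09 against 0.00. None of the 34 was called by edgeR at an FDR of 10% in WT cells, where 0.431% of all genes were called, or in HIF1A-/- cells, where 0% were. In both comparisons 0 genes of the set had an unadjusted p under 0.05, and DESeq2 called 0. The standard errors of the single genes' fold changes had a median of 0.32. In bulk nuclei, fewer transcribing cells and less transcription per cell cannot be told apart. The scaling makes each level relative to the other genes of its library, so a drop shared by all genes would not show. The HIF1A-/- median ran from -0.50 without hypoxia replicate 1 to 0.30 without normoxia replicate 1 of that genotype, and the WT median from -0.46 without hypoxia replicate 1 to -0.04 without hypoxia replicate 2.

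Libraries of the same number were also compared within a genotype. The labels do not say whether a number marks a shared day, so this pairing is only by number. In WT cells 26 of 34 genes were lower in hypoxia in both pairs, against 37.9% of all genes, and in HIF1A-/- cells 27 of 34, against 34.4%. In all 4 pairs 23 of 34 were lower, or 67.6%, against 21.0% of all genes. The medians were -0.10 and -0.39 in the WT pairs numbered 1 and 2, and -0.11 and -0.09 in the HIF1A-/- pairs. The WT value rested mostly on replicate 2, whose hypoxia library was the low one. The difference was lower in pair 2 than in pair 1 for 32 of 34 genes, against 56.8% of all genes. Without pairing, both WT hypoxia libraries lay below both WT normoxia libraries for 11 of 34 genes (19.4% of all genes). For HIF1A-/- cells this held for 0 of 34 (11.3% of all genes), since each library numbered 1 lay above each numbered 2.

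By role, the WT medians were -0.20 for RNA polymerase I, -0.25 for the abundant nucleolar proteins, -0.23 for the snoRNP proteins, -0.24 for small subunit assembly and -0.29 for large subunit assembly. The corresponding medians in HIF1A-/- cells were -0.19, -0.04, -0.06, -0.16 and -0.12. In small subunit assembly 8 of 10 genes had lower fitted values in WT cells and 10 of 10 in HIF1A-/- cells. Genes of the pathway outside the set were also mostly lower in the gene body. Of 13 other RNA polymerase I genes 11 had lower values in WT cells, of 9 other snoRNP genes 8, of 48 other small subunit genes 44, and of 54 other large subunit genes 48, with medians of -0.19, -0.16, -0.22 and -0.20. In none of these 4 lists was a gene called by edgeR or had an unadjusted p under 0.05. Cytosolic ribosomal protein genes had a median of -0.20 over 74 genes and mitochondrial ones -0.24 over 71.

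**Figure D4:**
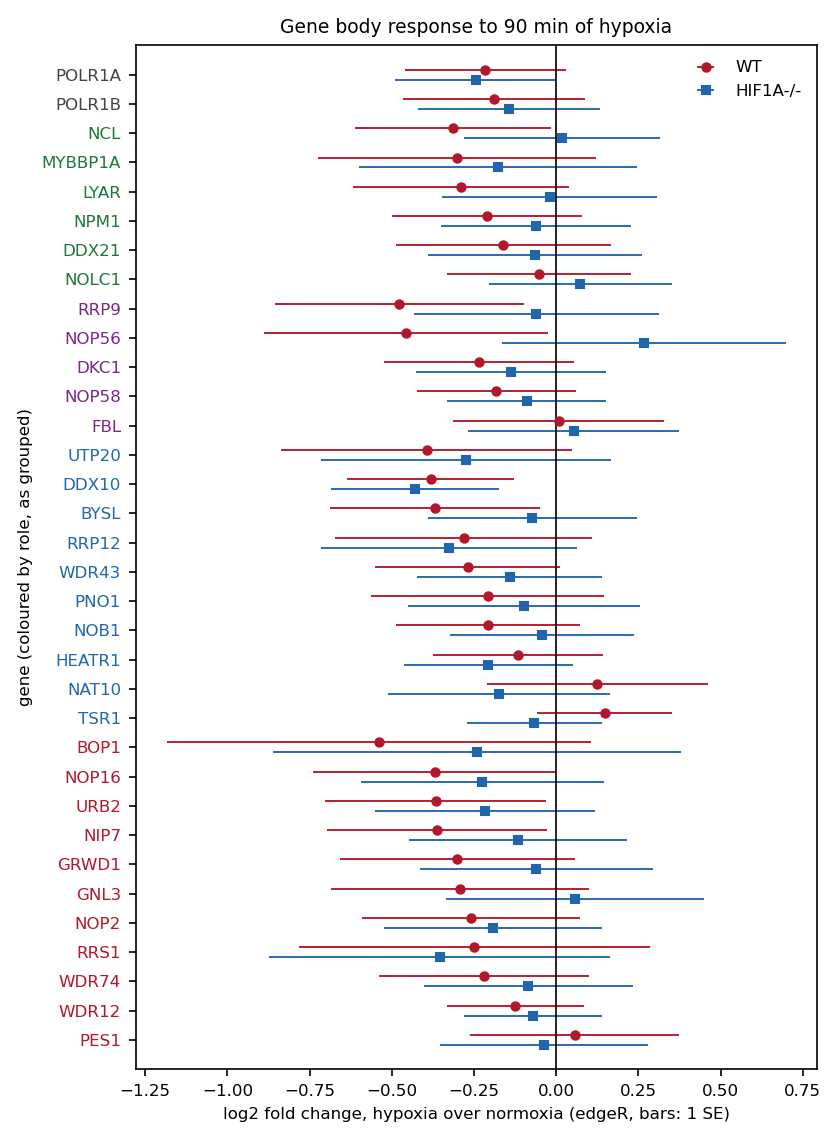
Log2 fold change of the gene body level in hypoxia over normoxia, in WT (circles) and HIF1A-/- cells (squares), with 1 standard error from edgeR and genes grouped by role. Most points lie left of 0, at medians of -0.25 and -0.09, and none passed an FDR of 10%.

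DDX10, the RNA helicase of small subunit assembly, had the smallest p in both genotypes. Its gene body level was 351 and 377 CPM in replicates 1 and 2 of WT normoxia and 290 and 268 CPM in WT hypoxia. The HIF1A-/- values were 412 and 266 CPM in normoxia and 309 and 195 CPM in hypoxia. The WT groups did not overlap, and the HIF1A-/- groups overlapped while each pair of like number fell. The log2 fold change was -0.38 ± 0.255 (SE) in WT cells and -0.43 ± 0.255 in HIF1A-/- cells, with edgeR adjusted p-values of 0.897 and 1.00. The HIF1A-/- value was -0.78 without hypoxia replicate 1 and -0.095 without normoxia replicate 1.

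RRP9, the snoRNP protein whose promoter is shown above, was at 25.9 and 23.1 CPM in the WT normoxia libraries and 22.3 and 13.0 CPM in WT hypoxia. HIF1A-/- cells had 37.2 and 21.3 CPM in normoxia and 35.9 and 20.2 CPM in hypoxia. The lowest library was replicate 2 of WT hypoxia. The log2 fold change was -0.48 ± 0.38 in WT cells (edgeR adjusted p of 0.897) and -0.06 ± 0.37 in HIF1A-/- cells. The WT value was -0.91 without hypoxia replicate 1 and -0.13 without hypoxia replicate 2.

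BYSL, a protein of small subunit precursors, was at 48.0 and 35.4 CPM in normoxic WT cells and at 36.7 and 27.9 CPM in WT hypoxia. The groups overlapped through the lower normoxia library, and the log2 fold change was -0.37 ± 0.32, or -0.58 without hypoxia replicate 1 and -0.13 without normoxia replicate 1. For BYSL the HIF1A-/- values were 53.0 and 32.9 CPM in normoxia and 51.2 and 30.6 CPM in hypoxia, a log2 fold change of -0.07 ± 0.32.

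POLR1A and RRP12 were named by their p in HIF1A-/- cells. POLR1A, the largest subunit of RNA polymerase I, was at 263 and 180 CPM in HIF1A-/- normoxia and 222 and 151 CPM in HIF1A-/- hypoxia, with a log2 fold change of -0.25 ± 0.24. In WT cells POLR1A was at 246 and 213 CPM in normoxia and 222 and 174 CPM in hypoxia, with -0.21 ± 0.24. RRP12, a protein that helps export small subunit precursors, was at 158 and 80.5 CPM in HIF1A-/- normoxia and 124 and 66.5 CPM in HIF1A-/- hypoxia, with -0.32 ± 0.39. In WT cells RRP12 was at 98.8 and 79.5 CPM in normoxia and 88.9 and 58.0 CPM in hypoxia, with -0.28 ± 0.39. For both genes the normoxia and hypoxia libraries overlapped in each genotype, and neither passed the test (edgeR adjusted p of 1.00 in HIF1A-/- cells).

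The genes that led their role by level were named whatever their change, and none passed the test. POLR1B was at 132 and 125 CPM in normoxic WT cells and 120 and 105 CPM in WT hypoxia, without overlap, a log2 fold change of -0.19 ± 0.28. In HIF1A-/- cells POLR1B was at 145 and 87.5 CPM in normoxia and 130 and 80.5 CPM in hypoxia. NCL was at 240 and 254 CPM in normoxic WT cells and 234 and 163 CPM in WT hypoxia, while in HIF1A-/- cells it was at 258 and 164 CPM in normoxia and 266 and 161 CPM in hypoxia. The NCL groups were apart in WT cells by a small margin in replicate 1 and a wide one in replicate 2, and were level in HIF1A-/- cells. TSR1, a GTPase-like protein of the last steps of small subunit assembly, was among the 4 genes with fitted values above 0 in WT hypoxia, with NAT10, PES1 and FBL. It was at 133 and 130 CPM in normoxic WT cells and 156 and 135 CPM in WT hypoxia, without overlap, and its log2 fold change was 0.15 ± 0.20. Its HIF1A-/- values were 137 and 101 CPM in normoxia and 133 and 94.5 CPM in hypoxia. GNL3 was at 109 and 143 CPM in normoxic WT cells, 129 and 77.6 CPM in WT hypoxia, 138 and 73.9 CPM in HIF1A-/- normoxia and 143 and 77.6 CPM in HIF1A-/- hypoxia. Its groups overlapped in both genotypes.

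Whether the response differed between genotypes was tested directly, as the HIF1A-/- response minus the WT response. The median of the 34 genes was 0.12, no gene of the set was called by edgeR (0.0539% of all genes were), 0 had an unadjusted p under 0.05, and DESeq2 called 0. The smallest p belonged to NOP56. Its level was 236 and 396 CPM in WT normoxia and 308 and 153 CPM in WT hypoxia, so that the WT groups overlapped widely. In HIF1A-/- cells NOP56 was at 270 and 163 CPM in normoxia and 335 and 186 CPM in hypoxia, higher in hypoxia within each number. The difference was 0.72 ± 0.61 in log2 (edgeR adjusted p of 1.00), followed by NCL at 0.33 ± 0.42 and RRP9 at 0.42 ± 0.53. Without hypoxia replicate 1 of HIF1A-/- cells the median of the set turned to -0.29.

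**Figure D5:**
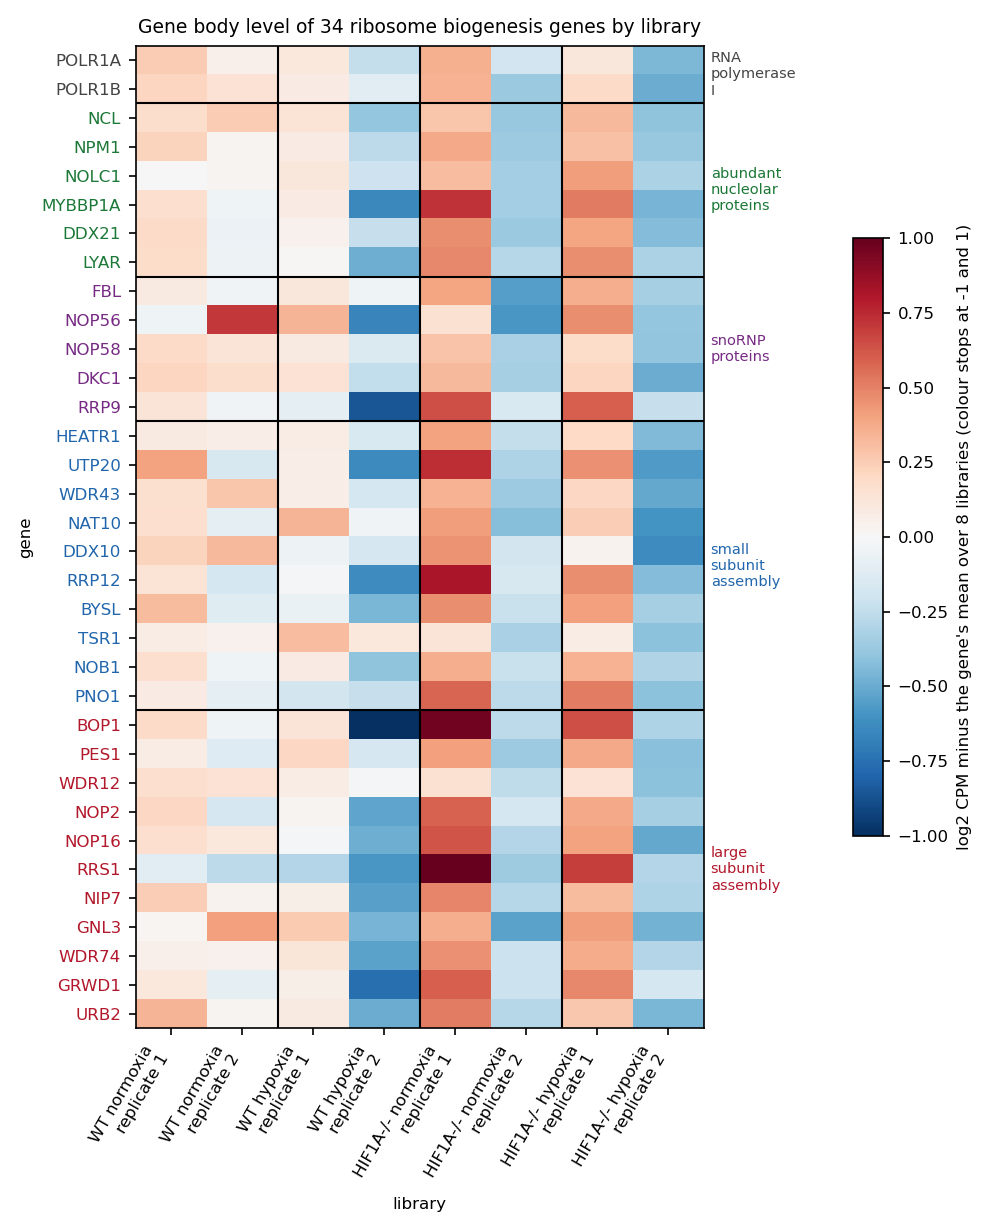
Gene body level of the 34 genes in each of the 8 libraries, as log2 CPM minus the mean of that gene over the libraries, with genes grouped by role and colours that stop at -1 and 1. The columns of replicate 1 of both HIF1A-/- groups are above the mean for all 34 genes and those of replicate 2 below it, and in WT hypoxia replicate 2 only 1 gene is above it.

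The comparison of genotypes turned its direction with the replicate. In normoxia, HIF1A-/- minus WT had a median of 0.28 log2 CPM between the libraries numbered 1, with 33 of 34 genes higher, and of -0.31 between those numbered 2, with 33 of 34 genes lower. For 32 of 34 genes it was positive in number 1 and negative in number 2, as it was for 22.6% of all genes. In hypoxia this held for 17 of 34 genes, against 13.7% of all genes, and the medians were 0.25 and -0.02. The fitted medians were 0.02 in normoxia and 0.13 in hypoxia. No gene of the set was called by edgeR or DESeq2 in normoxia (1.78% of all genes by edgeR) or in hypoxia (4.26%), and 0 had an unadjusted p under 0.05 in either.

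The genes with the smallest p in normoxia were RRS1, NOP56 and RRP12. RRS1, a protein of the ribonucleoprotein that brings its own small RNA into the large subunit, was at 4.91 and 4.42 CPM in normoxic WT cells and 12.4 and 4.14 CPM in HIF1A-/- normoxia. The excess lay in replicate 1 alone, and the log2 fold change was 0.83 ± 0.53 (edgeR adjusted p of 0.805). In hypoxia RRS1 was at 4.33 and 3.53 CPM in WT cells and 8.67 and 4.32 CPM in HIF1A-/- cells. NOP56 was lower in HIF1A-/- normoxia, at -0.55 ± 0.43 (edgeR adjusted p of 0.890), and at -0.13 without WT normoxia replicate 2 or -0.92 without HIF1A-/- normoxia replicate 1. RRP12 was at 0.42 ± 0.39 (edgeR adjusted p of 0.930).

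At the TSS, where paused polymerases collect, most genes of the set also had lower values in hypoxia. Its median fold change, in log2, was -0.14 in WT cells, with 29 of 33 genes lower, and -0.06 in HIF1A-/- cells, with 25 of 33 lower. Of all genes, 51.9% and 51.3% were lower. Lists outside the set did not share the WT median, with 0.16 for other RNA polymerase I genes and 0.07 for other snoRNP genes. Other small and large subunit genes both had -0.01, cytosolic ribosomal protein genes 0.004 and mitochondrial ones 0.018. In HIF1A-/- cells the medians of these lists ran from -0.11 to 0.05. The WT median of the set ran from -0.29 without hypoxia replicate 1 to -0.054 without hypoxia replicate 2. The HIF1A-/- median turned from -0.25 to 0.11 when these libraries of its own group were left out, and its pair numbered 1 had 18 of 33 genes lower. Both WT hypoxia libraries lay below both WT normoxia libraries for 12 of 33 genes (17.5% of all genes). Values were lower in both WT pairs for 18 of 33 (30.4%), in both HIF1A-/- pairs for 14 of 33 (26.6%), and in all 4 pairs for 7 of 33 (10.1%). No gene of the set was called by edgeR or DESeq2 in WT (0.0460% of all genes by edgeR) or in HIF1A-/- cells (0%), or for the genotype difference (0.00657%), and 0 had an unadjusted p under 0.05 in these 3 comparisons. For HIF1A-/- against WT cells 0 were called in normoxia (0.657% of all genes) and 0 in hypoxia (1.10%). In hypoxia 2 of 33 were higher in HIF1A-/- cells at an unadjusted p under 0.05, where 7.35% of all genes were. They were NOP2, an rRNA methyltransferase, at 0.62 in log2, and GRWD1, a chaperone for a ribosomal protein, at 0.46, both named after their values were seen. NOP56 and NCL, the genes with the most body transcription per length, gave 698 and 798 CPM and 519 and 655 CPM at the TSS in WT normoxia. In WT hypoxia NOP56 gave 739 and 752 CPM and NCL 586 and 742 CPM. Neither showed at the TSS the low value that WT hypoxia replicate 2 had in the body.

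The pausing index, the read density at the TSS over that of the gene body, set these measures against each other. Its mean over the libraries ran from 9.95 for NPM1 to 247 for NAT10, which acetylates rRNA of the small subunit, leaving out PES1. The median of the 33 genes was 39.7 and 42.2 in replicates 1 and 2 of WT normoxia, and 40.6 and 53.1 in WT hypoxia. For HIF1A-/- cells it was 41.6 and 62.0 under normoxia, and 44.4 and 58.3 under hypoxia. Medians over all 14494 genes tested stayed between 44.1 and 47.6, so the higher values were in the libraries numbered 2 whose gene body sums were low. The fitted median log2 change in hypoxia was 0.08 in WT cells and 0.05 in HIF1A-/- cells, and that of HIF1A-/- against WT normoxia was 0.08. All 3 turned sign when a library was left out. The WT median was -0.027 without WT hypoxia replicate 2, the HIF1A-/- median -0.14 without HIF1A-/- normoxia replicate 1, and the normoxia median -0.096 without HIF1A-/- normoxia replicate 2. The WT medians were 0.30 for other RNA polymerase I genes, 0.07 for other snoRNP genes and 0.17 and 0.14 for other small and large subunit genes. Cytosolic ribosomal protein genes had 0.19 and mitochondrial ones 0.21. In HIF1A-/- cells the medians of these lists outside the set ran from -0.10 to 0.15. DESeq2 was not run on the pausing index. No gene of the set was called by edgeR for the WT response (0.193% of all genes), the HIF1A-/- response (0%) or the genotypes in normoxia (0.0138%). At an unadjusted p under 0.05 there were 0 in both responses, and in the last comparison 1 of 33 higher (2.81% of all genes) and 1 of 33 lower (3.54%). These were WDR12 at 0.54 and RRS1 at -0.71 in log2, named after their values were seen.

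The 13 genes with an E-box in the promoter window were set beside those without it. They had a median log2 fold change in the gene body of -0.27 in WT and -0.07 in HIF1A-/- hypoxia. The 15 tested genes whose window lacked the E-box had -0.22 and -0.08. In WT cells 10 of 13 genes with the E-box were lower, against 14 of 15 without it. In HIF1A-/- cells these counts were 11 of 13 and 13 of 15. At the TSS the medians were -0.21 and -0.09 with the E-box and -0.13 and -0.04 without it. The 13 genes include PES1, whose TSS values are not those of its main start and whose gene body values are uncertain. These are descriptions with no test.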

How the data were processed

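PRO-seq reads were counted in 8 libraries. The authors trimmed the reads, aligned them to GRCh37 with HISAT2 2.1.0 without splicing, filtered with SAMtools 1.5 and counted with featureCounts of Subread 1.6.2 (versions per the labels). They kept a single TSS region of 551 bp and a single gene body, from base 1001 on, per gene. The deposited values are raw counts. Choices of start site and gene end are already in them.

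From the counts, genes above 0.5 CPM in at least 2 libraries were tested, 16686 in the gene body and 15212 at the TSS. Counts were scaled by TMM and fitted as 4 group means over all libraries with the quasi-likelihood test of edgeR 4.0.16 in R 4.3.3, without a replicate block, since the methods of the study name none. P-values were adjusted by Benjamini-Hochberg over every gene in the fit, with calls made at an FDR of 10%. The pausing index was fitted on TSS and body counts together with a term per library. Log2 CPM used a prior count of 2. The fits were tested on simulated data with changes in WT hypoxia. The simulation gave every gene the same dispersion and drew the libraries independently. It held no shift shared by libraries of the same number, so its rates may not hold for this set. Of 1.5-fold changes edgeR recovered 8.96% in the body and 2.99% at the TSS, so it would miss most changes of that size. Of 2-fold changes it recovered 52.2% and 62.7%. False calls were 6.14% of edgeR calls and 22.1% of DESeq2 calls in the body, and 11.3% and 7.83% at the TSS. DESeq2 1.42.0 and the other alternatives are given in the closing section. Copies were aligned with minimap2.

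Genes were given in every library when they had the highest level per length in their role or one of the 3 smallest p-values in a gene body comparison. The members and lists were chosen with earlier results of these data known, so no p is given over a list. Libraries of a group differed beyond counting noise and each counted as 1 replicate. The p-values rest on 1 spread per gene, shared by the 4 groups of 2 libraries and drawn towards that of other genes. Without a replicate block, that spread includes any shift shared by libraries of the same number.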

Additional observations from a re-analysis of the deposited data

How the results depend on the processing

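Of 174 fits under alternatives, 167 called no gene of the set. The medians of the set stayed within the replicate spread in 142 and moved further in 32. That spread is the SD between the medians from libraries numbered 1 and those numbered 2, so a median within it can still turn sign. Counts over all genes moved more. In the gene body, DESeq2 called 175 genes for the WT response (72 by edgeR), 8 for the HIF1A-/- response (0), 68 for the genotype difference (9), 630 for the genotypes in normoxia (297) and 1311 in hypoxia (711). Without the low-count filter the genotype difference had 17. With library totals the HIF1A-/- median of the set was -0.052 in place of -0.09. At the TSS, DESeq2 called 15 genes for the WT response (7), 3 for the genotype difference (1) and 312 for the genotypes in hypoxia (168). Without the filter these were 63, 8 and 1063, with 2 for the HIF1A-/- response (0) and 406 for the genotypes in normoxia (100). With only the compared groups, the genotypes differed at 52 genes in normoxia and 853 in hypoxia. For the genotypes in hypoxia at the TSS, 2 genes of the set were called without the filter and 1 with only the compared groups. For the pausing index, leaving out the filter gave 78 genes for the WT response (28) and 113 for the genotypes in normoxia (2). In the 100 bases before the start, CACGTG was in 13.8% of the 29 genes (5.88% of the tested genes), ACGTG in 24.1% (14.4%) and GCGTG in 51.7% (29.1%). The cause of these shifts was not tested.

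The labels do not say that a replicate number marks a shared day, and with 2 numbers the paired fit is only an alternative. Same-numbered libraries deviated together, with r from 0.484 to 0.790 in the body and 0.216 to 0.519 at the TSS over 6 pairs of groups. With the replicate block, body calls were 919 for the WT response, 6 for the HIF1A-/- response, 64 for the genotype difference, 1722 for the genotypes in normoxia and 4706 in hypoxia. TSS calls were 153, 1, 7, 652 and 2196 in the same order, and pausing index calls were 79 for the WT response and 103 for the genotypes in normoxia. For the genotypes in hypoxia the block called 3 genes of the set in the body, RRP9, GRWD1 and TSR1 (28.2% of all genes), and 3 at the TSS, NOP2, GRWD1 and URB2 (14.4%). It called no gene of the set in the other comparisons.

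Leaving out 1 library leaves a lone sample that is assumed to vary like the other groups. In the gene body, calls ran from 0 to 88 for the WT response (0 without WT normoxia replicate 1), 0 to 9 for the genotype difference (0 without HIF1A-/- hypoxia replicate 1), 75 to 272 for the genotypes in normoxia (75 without WT normoxia replicate 2) and 169 to 867 in hypoxia (169 without WT hypoxia replicate 2). The medians of the set ran from -0.46 to -0.042 for the WT response and -0.50 to 0.30 for the HIF1A-/- response. They ran from -0.29 to 0.55 for the genotype difference and -0.29 to 0.47 for the genotypes in hypoxia. For the genotypes in normoxia they turned sign, from -0.37 without HIF1A-/- normoxia replicate 1 to 0.34 without HIF1A-/- normoxia replicate 2. At the TSS, calls ran from 1 to 13 for the WT response, 0 to 2 for the genotype difference, 30 to 523 for the genotypes in normoxia and 34 to 653 in hypoxia, with 0 to 1 gene of the set in each of the last comparisons. TSS medians ran from -0.29 to -0.054 (WT), -0.25 to 0.11 (HIF1A-/-), -0.13 to 0.25 (genotype difference) and -0.080 to 0.33 (genotypes in hypoxia). Those of the genotypes in normoxia ran from -0.12 to 0.20. Pausing index calls ran from 8 to 39 for the WT response and 0 to 70 for the genotypes in normoxia, and its medians from -0.027 to 0.19 (WT), -0.14 to 0.27 (HIF1A-/-) and -0.096 to 0.20 (genotypes in normoxia). Single genes that turned direction were, for the HIF1A-/- response, GNL3 (-0.43 to 0.56), NCL (-0.37 to 0.37), NOP56 (-0.20 to 0.66), POLR1A (-0.53 to 0.039), POLR1B (-0.50 to 0.25), RRP12 (-0.82 to 0.23) and TSR1 (-0.31 to 0.16), low without HIF1A-/- hypoxia replicate 1 and high without HIF1A-/- normoxia replicate 1. GNL3 in the WT response ran from -0.70 to 0.036, the genotype difference of NCL from -0.067 to 0.67 and of RRP9 from -0.042 to 0.85, and the genotypes in normoxia from -0.11 to 0.83 for RRP12 and -0.13 to 1.41 for RRS1.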
